A study of Homo sapiens with 9 samples.

Results

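Histone genes are the subject here, read by RNA-seq in OVCAR4, a human line established from a high-grade serous carcinoma of the ovary. Members were the rows of the gene count table with a protein-coding symbol of the replicative families (H1-1 to H1-6, H2AC, H2BC, H3C and H4C) or of the replacement families (among them H1-7, H1-8, H1-10, H2AZ, H2AX, H2AJ, H2AP, H3-3, H3-5 and MACROH2A). They numbered 84 of 61487 genes, 70 replicative and 14 variant. Only 27 of them, 17 replicative and 10 variant, were counted well enough to enter the fit, against 14630 genes of the whole table.

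Groups of cells, each of 3 libraries, were compared. EPZ015666-treated cells are Pt-resistant OVCAR4 cells kept for 5 days in EPZ015666, a small-molecule inhibitor of the arginine methyltransferase PRMT5, at 5 uM. Pt-resistant cells are a derivative of the line obtained through continuous exposure to cisplatin, and naive cells are the parental line, both given DMSO, the solvent. All carry the wild-type genotype in the labels, and the sources used here do not say whether the derivative is a clone. Replicates were wells of a plate, so a p-value reflects only how far wells differed, which may be technical.

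Histones package DNA into nucleosomes, each an octamer of H2A, H2B, H3 and H4, and linker histone H1 sits on the DNA between them. Replicative histone genes lie in clusters, mostly on chromosome 6, are transcribed in S phase, and usually end in a stem-loop in place of a poly(A) tail. The stem-loop-binding protein SLBP and the U7 snRNP direct its cleavage from the transcript. Variant histones are made outside S phase as well, from ordinary polyadenylated mRNAs, and are placed by dedicated chaperones. PRMT5 itself methylates arginines of histones H2A, H3 and H4. Its own mRNA averaged 116 CPM (counts relative to library totals scaled by TMM) in EPZ015666-treated cells, 117 CPM in Pt-resistant cells and 121 CPM in naive cells.

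The stem-loop, 6 paired bases on each side of a loop of 4, was looked for in the transcripts of GENCODE 29, where it appeared for 29 of the replicative members and for 1 variant, H2AX. Many replicative models, such as that of H1-2, end at the stop codon, and 4 members have no model. A missing match therefore does not show that a gene lacks the stem-loop. In H2AC6, the replicative gene with the highest count, 1114 bases follow it in a protein-coding transcript. The sites are shown because the same element sits in genes that differed in their counts. Capitals mark the paired bases, with 7 bases of transcript on either side.
H2AC6: acccaaaGGCTCTtttcAGAGCCcccctac
H2BC4: ccccaaaGGCTCTtttaAGAGCCacccaga
H2BC5: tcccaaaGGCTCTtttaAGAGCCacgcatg
H3C6: atccaaaGGCTCTtctcAGAGCCaaccact
H4C8: aaccaaaGGCCCTtttcAGGGCCgcccact
H2AX: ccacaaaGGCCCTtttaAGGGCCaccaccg

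Annotated transcripts of 1 gene can differ in how far they run past the stem-loop. H3C6 has a transcript with 1862 further bases and another with 5, and H4C8 has protein-coding transcripts with 630 and 18. H2BC4 and H2BC5 each have a transcript with the stem-loop, 116 and 39 bases from its end, and a longer one without it. H2AX, the damage-signalling variant, is known for making both a stem-loop form and a polyadenylated form. Which of these forms the reads came from was not tested.

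Promoters are shown for H2AC6, whose mRNA changed most in 2 of the 3 comparisons, and for H2AC8, the replicative gene that was higher with EPZ015666, each read 5' to 3' over the 250 bases before the RefSeq start (GRCh38.p14). Each of the 2 stretches also serves, on the other strand, a divergent H2B gene, H2BC4 beside H2AC6 with 246 bases between the starts and H2BC8 beside H2AC8 with 233. H4C8 and H1-2 follow as the promoters of a further strongly changed gene and of the well-counted linker histone. Capitals mark the CCAAT box (CCAAT), the TATA box (TATAAA) and the octamer (ATTTGCAT), on either strand.
H2AC6 and H2BC4, chr6:26123922-26124171, plus strand: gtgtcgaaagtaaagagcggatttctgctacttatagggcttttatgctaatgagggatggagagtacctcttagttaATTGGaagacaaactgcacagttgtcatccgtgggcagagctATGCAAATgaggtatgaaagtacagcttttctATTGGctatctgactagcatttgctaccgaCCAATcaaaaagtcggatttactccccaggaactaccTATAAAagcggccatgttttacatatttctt
H2AC8 and H2BC8, chr6:26216671-26216920, plus strand: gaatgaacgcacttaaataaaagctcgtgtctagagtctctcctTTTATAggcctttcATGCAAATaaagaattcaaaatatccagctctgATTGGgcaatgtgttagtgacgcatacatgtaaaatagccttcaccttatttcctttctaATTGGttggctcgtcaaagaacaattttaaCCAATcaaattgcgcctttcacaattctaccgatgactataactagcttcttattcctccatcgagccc
H4C8, chr6:26285535-26285784, minus strand: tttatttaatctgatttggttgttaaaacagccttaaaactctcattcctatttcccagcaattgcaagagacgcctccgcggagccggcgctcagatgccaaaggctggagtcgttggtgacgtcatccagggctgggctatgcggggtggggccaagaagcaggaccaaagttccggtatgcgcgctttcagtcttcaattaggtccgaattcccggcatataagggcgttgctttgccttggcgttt
H1-2, chr6:26056471-26056720, minus strand: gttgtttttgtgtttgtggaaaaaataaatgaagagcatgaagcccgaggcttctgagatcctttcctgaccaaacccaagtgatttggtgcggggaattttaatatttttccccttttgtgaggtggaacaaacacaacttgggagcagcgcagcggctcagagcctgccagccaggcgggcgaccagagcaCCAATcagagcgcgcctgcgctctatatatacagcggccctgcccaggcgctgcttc

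The CCAAT box was found before 54 of 64 replicative members with a listed promoter, 10 of 12 variant members and 32.01% of 35116 promoters of the same length. For the TATA box these were 43 of 64, 5 of 12 and 10.7%, and for the octamer 26 of 64, 1 of 12 and 1.63%. A member was counted if any of its listed windows held the motif, while the 35116 promoters were counted singly. Members with several listed starts, such as H3-3A and MACROH2A1, thus had more chances of a match, and the units differ. Octamers lay before 11 of 16 H2A and 14 of 18 H2B genes, 1 of 11 H3 genes, and none of the 6 H1 or 13 H4 genes. The H3 match, for H3C4, comes from a listed start whose window is that of H2AC7, while its other listed window holds no octamer. Among the listed genes, 11 pairs of an H2A and an H2B gene start less than 250 bases apart on opposite strands. The windows of a pair therefore overlap, and 1 CCAAT box, TATA box or octamer can count for both genes in all these counts. H2AC6 and H2AC8 hold all 3 motifs, while H4C8 holds none of them and H1-2 a CCAAT box only. The TATA match of H2AC8 lies on the other strand, far from its start, and the same bases lie close to the start of H2BC8. A match of letters is a description and not a bound site.

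Across libraries of 14320929 to 19114811 counts, replicative histone mRNA made up 0.00847% to 0.0334% of all counts and variant histone mRNA 0.131% to 0.167%. Serous markers were present (8 of 9 in the fit), although WT1 was near 0, at 0.22 to 0.32 CPM on average, and summed to 3229 to 3300.2 CPM in EPZ015666-treated, 3934 to 4044 CPM in Pt-resistant and 4021 to 4294 CPM in naive libraries. Stromal and endothelial markers, mostly PECAM1 and CDH5, with DCN and COL3A1 at or near 0, summed to 94.6 to 110.3 CPM in treated, 127 to 133 CPM in Pt-resistant and 143 to 161 CPM in naive libraries. Immune markers summed to 3.57 to 5.80 CPM in treated, 0.600 to 0.851 CPM in Pt-resistant and 2.61 to 4.37 CPM in naive libraries, lowest in the Pt-resistant ones. The 13 mitochondrially encoded mRNAs, which also reflect RNA quality, summed to 63841 to 85325 CPM in EPZ015666-treated, 44995 to 51399 CPM in Pt-resistant and 57478 to 77936 CPM in naive libraries, so the Pt-resistant libraries lay below the others. The part of these markers and of RNA quality in the histone differences was not tested. Of 13 RNAs that lack a poly(A) tail, 8 had no count in any library, and RN7SL1 held nearly all of the rest. These RNAs summed to 30.9 to 48.9 CPM in treated, 33.5 to 47.6 CPM in Pt-resistant and 18.8 to 22.2 CPM in naive libraries, lowest in the naive ones. RN7SL1 was called higher than in naive cells in both treated (log2 fold change 1.05, edgeR adjusted p = 1.23e-06) and Pt-resistant cells (0.89, adjusted p = 1.37e-05), and not called between treated and Pt-resistant cells (0.16, SE 0.14). The sources used here do not say how RNA was selected for the libraries, and the part of RNAs without a tail in the low replicative counts, or in the differences of replicative genes between groups, was not tested.

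Most replicative genes had few counts or none. Of the 70, 13 had no count in any library, 27 had under 10 counts over all 9 libraries, and the 53 that did not enter the fit held 816 counts together, 75 at most for 1 gene (H4C3). The genes H2AC6, H1-2, H2BC5 and H3C6 held 80.4% of all replicative counts. Reads that fall on several near-identical histone copies are left out by STAR's gene counting, so low counts do not show that a gene was not transcribed. By position on chromosome 6, which holds 55 of the 70, the counted genes were scattered among uncounted neighbours: H1-2, H2AC6 and H2BC5 stand within the first 15 genes of the order, H3C6 and H4C8 in its middle.

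**Figure D1:**
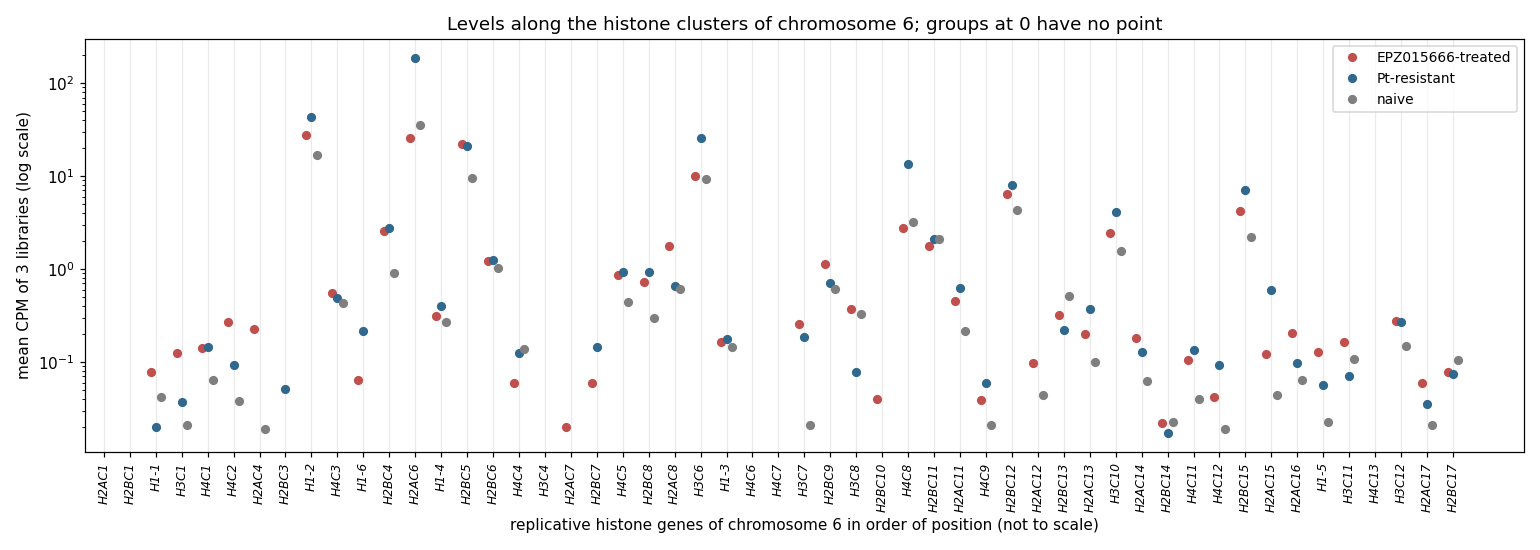
Mean CPM (3 libraries, log scale) of 53 replicative genes of chromosome 6 with a GENCODE 29 model, in order of position and not to scale, for EPZ015666-treated (red), Pt-resistant (blue) and naive (grey) cells. In Pt-resistant cells H2AC6 is at 188 CPM and its divergent neighbour H2BC4 at 2.75 CPM, against 0.915 CPM of H2BC4 in naive cells. Most genes lie below 1 CPM.

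Replicative histone mRNA was highest in Pt-resistant cells. The sum over all 70 genes, which needs no filter on low counts, was 125, 111 and 122 CPM in the EPZ015666-treated libraries, 331, 333 and 327 CPM in the Pt-resistant libraries and 81.5, 100.4 and 97.2 CPM in the naive libraries. Pt-resistant libraries thus overlapped neither other group, and treated libraries lay above all naive ones. The sum held 20.1, 22.4 and 21.8% H2AC6 in treated libraries, 56.97, 56.9 and 56.99% in Pt-resistant libraries and 33.5, 42.7 and 36.1% in naive libraries. Without H2AC6 it was 99.6, 85.96 and 95.4 CPM in treated, 142, 143 and 141 CPM in Pt-resistant and 54.2, 57.6 and 62.2 CPM in naive libraries, the same order of groups with no overlap.

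The 53 replicative genes below the filter summed to 6.86, 5.14 and 6.07 CPM in treated libraries, 6.96, 6.17 and 5.71 CPM in Pt-resistant libraries and 3.35, 3.23 and 4.59 CPM in naive libraries. Here the treated and Pt-resistant libraries overlapped, and both lay above the naive ones. Variant histone mRNA, summed over 14 genes, was 1444, 1347 and 1428 CPM in treated, 1492, 1594 and 1479 CPM in Pt-resistant and 1611, 1534 and 1557 CPM in naive libraries, a far narrower range. Fewer transcripts per cell and fewer cells in the phase that makes them cannot be told apart in bulk RNA.

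**Figure D2:**
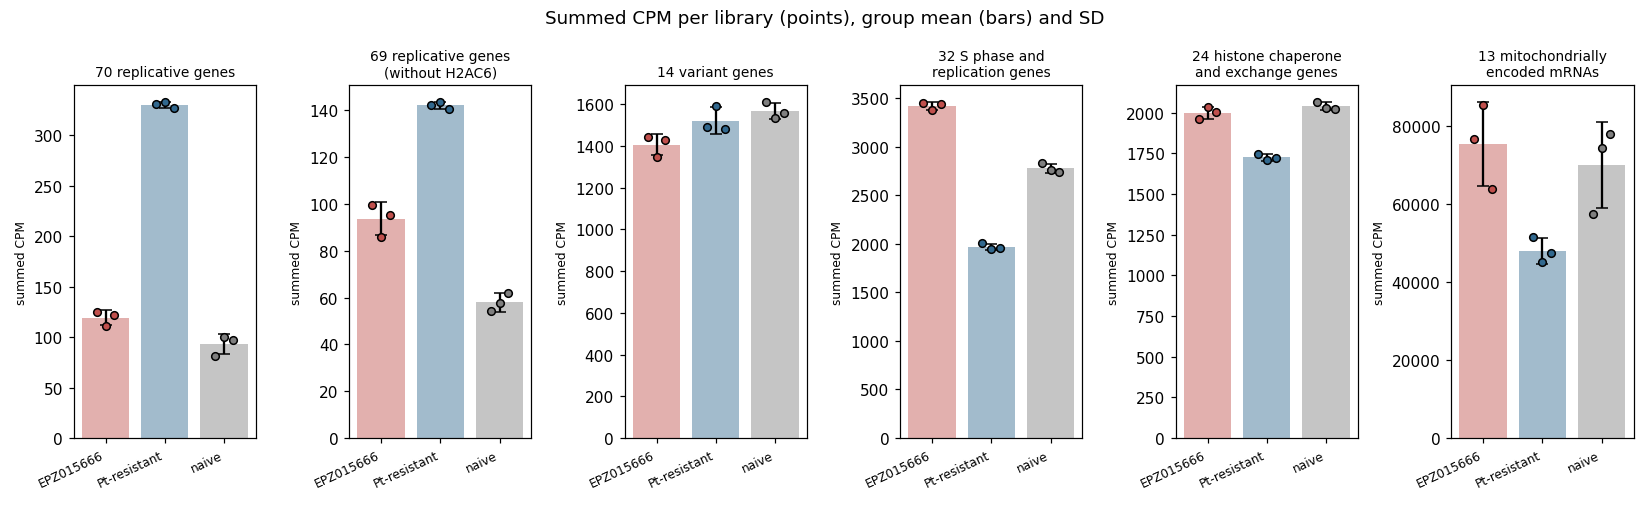
Summed CPM in each library (points) with the group mean (bars) and SD, for replicative genes with and without H2AC6, variant genes, and 3 further gene lists, in EPZ015666-treated, Pt-resistant and naive cells. Replicative histone mRNA peaks in Pt-resistant cells, where the S phase and replication list is lowest (1944 to 2005 CPM).

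Pt-resistant cells were first set against naive cells, to see which histone genes differed in the resistant derivative. Of the 17 replicative genes in the fit, 13 rose and none fell, and their median log2 fold change was 1.40, while 29.8% of all tested genes were called higher and 29.4% lower, with a median of 0.01. Of the 10 variant genes 3 rose and 4 fell, with a median of -0.08. The replicative genes H2AC8, H2AC11, H2BC8, H2BC9 and H4C5, 5 of the 17, lay under the 0.589 CPM of the filter in some libraries and could enter the fit through the group where they were high. They include 3 of the 13, H2AC11, H2BC8 and H4C5, so these counts and medians describe the genes in the fit and are no support for a direction. The calls of H2AC11 (log2 fold change 1.55, edgeR adjusted p = 0.0179) and H4C5 (1.07, adjusted p = 0.0466) were lost without single libraries: that of H2AC11 without naive library 1 (adjusted p = 0.066), naive library 3 (0.0737) or Pt-resistant library 1 (0.0872), and that of H4C5 without naive library 1 (0.0927), naive library 3 (0.205), Pt-resistant library 2 (0.282), treated library 2 (0.0527) or treated library 3 (0.0539). The sums over all 70 genes do not depend on that filter.

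H2AC6, a core H2A gene, showed the largest change, with 189, 189 and 186 CPM in Pt-resistant libraries against 27.4, 42.8 and 35.1 CPM in naive ones. Its log2 fold change was 2.43 (SE 0.11, edgeR adjusted p = 5.36e-15), 5.38-fold. H4C8, which encodes the H4 protein that nearly every H4 gene encodes, had 12.7, 13.6 and 14.4 CPM in Pt-resistant libraries against 3.63, 2.75 and 3.27 CPM in naive ones. That is a log2 fold change of 2.07 (SE 0.15, edgeR adjusted p = 5.54e-11). Every Pt-resistant library lay above every naive one for both genes.

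H3C6, an H3.1 gene, had 26.3, 22.1 and 29.2 CPM in Pt-resistant libraries against 9.53, 10.6 and 7.87 CPM in naive ones, a log2 fold change of 1.47 (SE 0.12, edgeR adjusted p = 4.58e-10). H3C10, another H3.1 gene, had 4.62, 4.09 and 3.74 CPM in Pt-resistant libraries against 1.65, 2.20 and 0.881 CPM in naive ones, with a log2 fold change of 1.40 (SE 0.25, edgeR adjusted p = 3.52e-05). Linker histone H1-2 had 43.6, 44.8 and 40.6 CPM in Pt-resistant libraries against 15.7, 16.9 and 18.2 CPM in naive ones, with a log2 fold change of 1.34 (SE 0.10, edgeR adjusted p = 3.17e-11). In the fit were 1 H1, 3 H2A, 9 H2B, 2 H3 and 2 H4 replicative genes. Of these, 1, 2, 6, 2 and 2 were called higher, beside 29.8% of all tested genes. Counts this small, taken from the same 17 genes, are no support for a direction in any class.

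Among H2B genes 6 of 9 in the fit rose, where 29.8% of all tested genes were called higher. H2BC8, 1 of the 6, and H2BC9 lay under the filter level in some libraries. This count is therefore no support for a direction either. H2BC5 had 19.3, 23.2 and 21.4 CPM in Pt-resistant libraries against 7.83, 7.76 and 13.2 CPM in naive ones, with a log2 fold change of 1.15 (SE 0.15, edgeR adjusted p = 4.13e-07). The third naive library was the highest of its group. H2BC12 had 7.38, 9.78 and 6.80 CPM in Pt-resistant libraries against 4.31, 4.19 and 4.34 CPM in naive ones, with a log2 fold change of 0.90 (SE 0.17, edgeR adjusted p = 9.95e-05). H2BC15 and H2BC4, at 7.05 ± 0.360 CPM and 2.75 ± 0.228 CPM in Pt-resistant cells (SD, n = 3) against 2.22 ± 0.751 CPM and 0.915 ± 0.462 CPM in naive cells, rose by 1.68 and 1.58 on the log2 scale (edgeR adjusted p = 1.18e-07 and 4.85e-05). H2BC11, at 2.12 ± 0.228 CPM and 2.12 ± 0.559 CPM, did not pass the test. Exons of H2BC15 overlap H2AC16 on the same strand and H2AC15 on the other, so its reads are less certain.

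**Figure D3:**
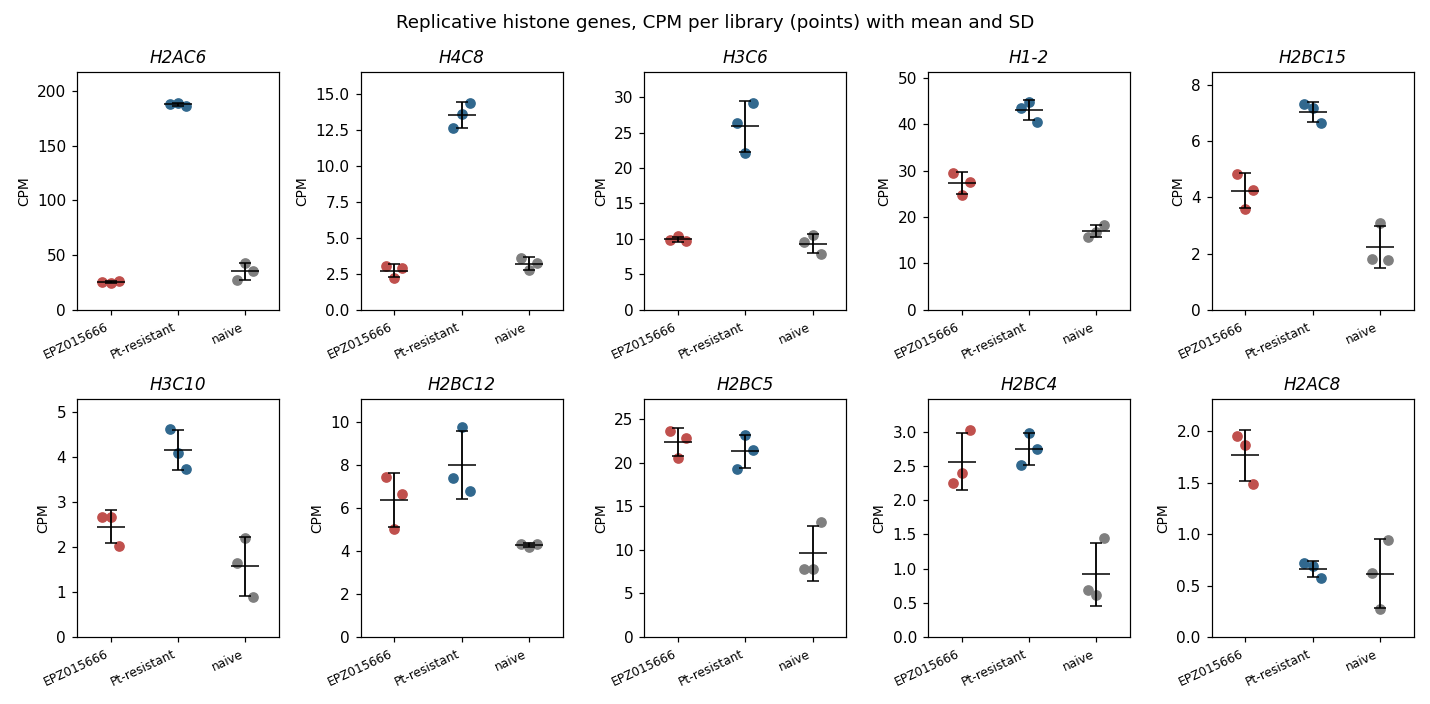
CPM of 10 replicative histone genes in each library (points), with the mean (horizontal line) and SD (bars), in EPZ015666-treated, Pt-resistant and naive cells; each axis starts at 0. H2AC6, H4C8 and H3C6 are high only in the Pt-resistant libraries, H2BC5 and H2BC4 are high in treated and Pt-resistant libraries, and H2AC8 is highest in the treated ones.

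Variant genes moved less and in both directions. The H3.3 gene H3-3B, which supplies replication-independent H3, had 501, 524 and 468 CPM in Pt-resistant libraries against 340.0, 331 and 308 CPM in naive ones, a log2 fold change of 0.61 (SE 0.08, edgeR adjusted p = 2.57e-07). Its sister H3-3A was counted at only 2.61 ± 0.252 CPM in Pt-resistant and 1.60 ± 0.447 CPM in naive cells (SD, n = 3), with a log2 fold change of 0.68 (SE 0.24, edgeR adjusted p = 0.0176). H3-3A has many processed pseudogenes that can take or void its reads, and its call was lost without naive library 2 (log2 fold change 0.47, adjusted p = 0.117) or Pt-resistant library 1 (log2 fold change 0.61, adjusted p = 0.0584). H2AJ, an H2A variant of mammals, had 34.7, 35.7 and 36.5 CPM in Pt-resistant libraries against 24.1, 22.3 and 25.6 CPM in naive ones, with a log2 fold change of 0.57 (SE 0.09, edgeR adjusted p = 8.31e-06).

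Both macroH2A genes, whose proteins carry a large macrodomain and mark repressed chromatin, were lower in Pt-resistant cells. MACROH2A1 had 261, 249.2 and 239.8 CPM in Pt-resistant libraries against 419, 355 and 364 CPM in naive ones, with a log2 fold change of -0.60 (SE 0.08, edgeR adjusted p = 4.5e-07). MACROH2A2 had 31.6, 29.5 and 26.9 CPM in Pt-resistant libraries against 50.8, 55.3 and 52.99 CPM in naive ones, with a log2 fold change of -0.86 (SE 0.09, edgeR adjusted p = 4.21e-08). The H2A.Z gene H2AZ2 also fell, to 125 ± 5.62 CPM in Pt-resistant cells against 168 ± 11.4 CPM in naive cells (SD, n = 3), a log2 fold change of -0.43 (SE 0.08, edgeR adjusted p = 4.27e-05).

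H2AZ1, which encodes the other H2A.Z protein, was 304 ± 61.5 CPM in Pt-resistant and 304 ± 39.5 CPM in naive cells, with a log2 fold change of 0.00 (SE 0.12) that did not pass the test. H1-10 and H2AX were not called, at log2 fold changes of -0.02 and -0.15 (SE 0.09 and 0.07).

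The comparison of EPZ015666-treated with untreated Pt-resistant cells asks what the inhibitor changed in the resistant line, and it shares the Pt-resistant libraries with the comparison above. Of the 17 replicative genes in the fit 1 rose and 7 fell, with a median log2 fold change of -0.34, while 31.9% of all tested genes were called higher and 30.5% lower, with a median of 0.01. The 5 genes under the filter level in some libraries are among the 17, and H2AC8, which rose, is 1 of them. The counts and the median therefore describe the genes in the fit and are no support for a direction. Of the 10 variant genes 1 rose and 3 fell, with a median of -0.05.

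H2AC6 again changed most, with 25.1, 24.8 and 26.7 CPM in treated libraries against 189, 189 and 186 CPM in Pt-resistant ones, a log2 fold change of -2.88 (SE 0.11, edgeR adjusted p = 7.11e-16), 7.36-fold lower. H4C8 had 3.08, 2.20 and 2.92 CPM in treated libraries against 12.7, 13.6 and 14.4 CPM in Pt-resistant ones, with a log2 fold change of -2.30 (SE 0.16, edgeR adjusted p = 1.24e-11). H3C6 had 9.88, 10.3 and 9.64 CPM in treated libraries against 26.3, 22.1 and 29.2 CPM in Pt-resistant ones, with a log2 fold change of -1.38 (SE 0.12, edgeR adjusted p = 1.09e-09). None of these groups overlapped. Smaller falls were called for H1-2, to 29.6, 24.8 and 27.7 CPM in treated libraries, with a log2 fold change of -0.65 (SE 0.09, edgeR adjusted p = 1.58e-06), and for H2BC15, H3C10 and H2BC21, with log2 fold changes of -0.72, -0.76 and -0.76 (edgeR adjusted p = 0.00106, 0.00606 and 0.00924). The call of H2BC21 was lost without Pt-resistant library 1 (log2 fold change -0.58, adjusted p = 0.0701).

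A further set of replicative genes, 9 of the 17 in the fit, was called in neither direction. H2BC5 had 23.7, 20.6 and 22.8 CPM in treated libraries against 19.3, 23.2 and 21.4 CPM in Pt-resistant ones, and its log2 fold change of 0.07 (SE 0.13) did not pass the test. H2BC4 had 2.25, 2.40 and 3.03 CPM against 2.52, 2.98 and 2.75 CPM in the same groups, with a log2 fold change of -0.10 (SE 0.24), not called either. H2BC12 was not called at a log2 fold change of -0.32 (edgeR adjusted p = 0.0918), but was called lower without Pt-resistant library 3 (log2 fold change -0.43, adjusted p = 0.0429) or treated library 1 (log2 fold change -0.45, adjusted p = 0.043).

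H2AC8 was the replicative gene that rose, with 1.95, 1.87 and 1.49 CPM in treated libraries against 0.720, 0.691 and 0.571 CPM in Pt-resistant ones and a log2 fold change of 1.41 (SE 0.34, edgeR adjusted p = 0.000838). It is 1 of the 5 genes under the filter level in some libraries and could enter the fit through its level in treated cells. Its coding sequence is nearly shared with other H2A genes. The divergent pair H2AC6 and H2BC4, printed above from 1 promoter, differed in how they moved: the ratio of H2AC6 to H2BC4 CPM was 11.2, 10.3 and 8.78 in treated libraries, 74.8, 63.5 and 67.7 in Pt-resistant libraries and 40.2, 69.3 and 24.2 in naive libraries. Treated libraries lay below all others, while the Pt-resistant and naive ones overlapped. H2BC4 had 320 counts over all 9 libraries and averaged 0.915 CPM in naive cells, so the naive ratios rest on few reads. Their overlap does not show that the ratio was alike in Pt-resistant and naive cells. For H2AC8 and H2BC8 the ratio was 2.36, 3.50 and 1.79 in treated, 0.667, 0.929 and 0.579 in Pt-resistant and 2.75, 0.800 and 3 in naive libraries, so that treated lay above Pt-resistant libraries. This ratio rests on few reads, with 152 counts of H2AC8 and 101 of H2BC8 over all 9 libraries. These ratios are descriptions, and no test was run on them.

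The linker variant H1-10 fell with the inhibitor. It had 56.3, 48.5 and 52.3 CPM in treated libraries against 93.2, 81.9 and 87.5 CPM in Pt-resistant ones, with a log2 fold change of -0.74 (SE 0.09, edgeR adjusted p = 1.54e-07). An antisense gene, H1-10-AS1, overlaps it on the other strand. Reads on the overlap would be left out or assigned by strand depending on the strand setting of the counting, which the sources used here do not give, and its effect on the value was not tested.

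H3-3B had 372, 351 and 351 CPM in treated libraries against 501, 524 and 468 CPM in Pt-resistant ones, with a log2 fold change of -0.48 (SE 0.08, edgeR adjusted p = 7.68e-06). H2AZ1 rose, with 417, 353 and 445 CPM in treated libraries against 239, 361 and 312 CPM in Pt-resistant ones and a log2 fold change of 0.41 (SE 0.12, edgeR adjusted p = 0.00362), although 1 Pt-resistant library lay above the lowest treated one. H2AZ2, MACROH2A1, MACROH2A2, H2AJ, H2AX and H3-3A were not called, with log2 fold changes of 0.04, 0.13, -0.06, 0.12, -0.04 and -0.31. Exons of H2AZ1 and MACROH2A2 overlap genes on the other strand, H2AZ1-DT and AIFM2, and those of H3-3A overlap H3-3A-DT. Those of MACROH2A1 overlap PITX1-AS1 and an unnamed gene on the other strand, and those of H3-3B overlap MIR4738 on the same strand and UNK on the other.

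**Figure D4:**
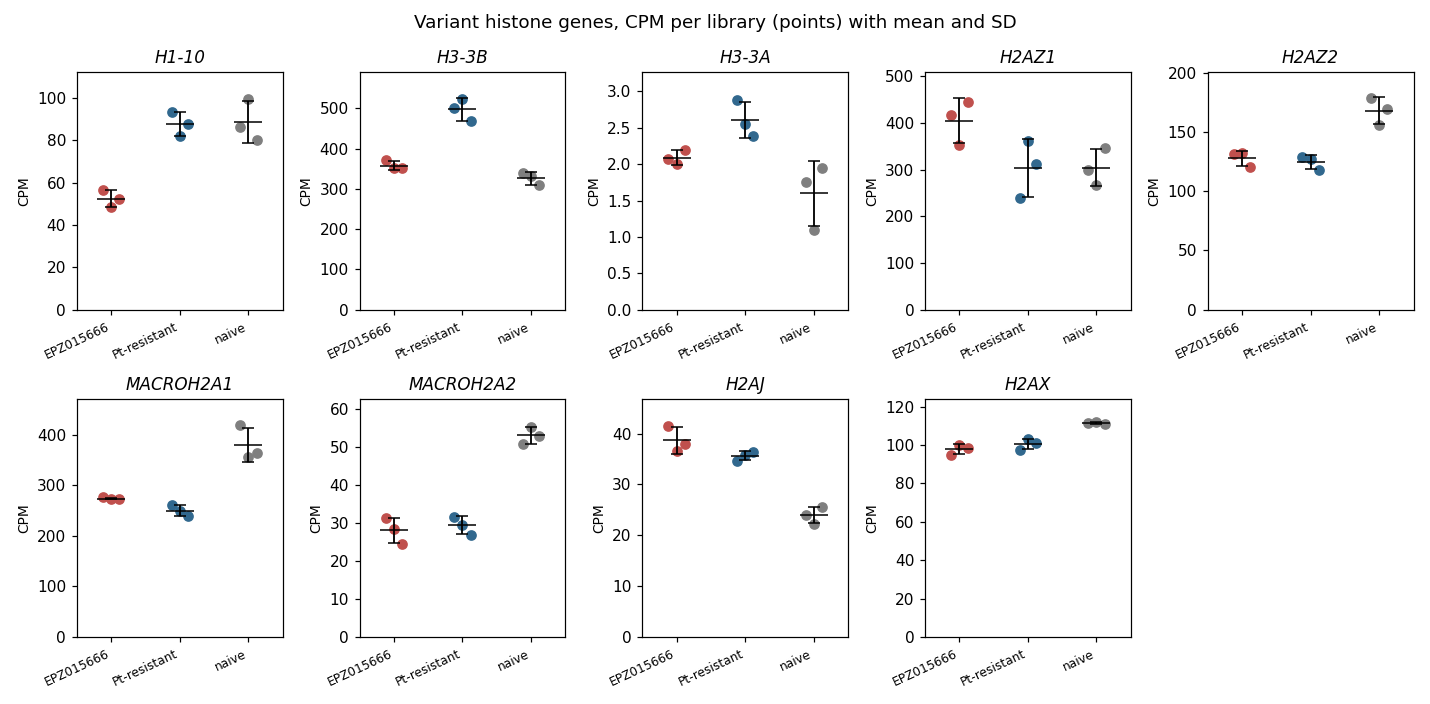
CPM of 9 variant histone genes in each library (points), with the mean (horizontal line) and SD (bars), in EPZ015666-treated, Pt-resistant and naive cells; each axis starts at 0. H1-10 and H3-3B are lower in treated than Pt-resistant libraries, and both macroH2A genes are highest in naive libraries.

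EPZ015666-treated Pt-resistant cells were also set against naive cells, which shows how far the treated derivative stood from the parental line. This comparison uses libraries of both earlier ones. Of the 17 replicative genes 9 were higher and 1 lower, with a median log2 fold change of 0.85, while 32.2% of all tested genes were called higher and 31.2% lower, with a median of 0.00. The 5 genes under the filter level in some libraries are among the 17, and of them H2AC8 and H2BC8 were called higher. These counts and the median therefore describe the genes in the fit and are no support for a direction. The call of H2BC8 was lost without naive library 1 (log2 fold change 1.15, edgeR adjusted p = 0.0566). Of the 10 variant genes 2 were higher and 6 lower, with a median of -0.29.

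For H2AC6, treated cells at 25.5 ± 0.978 CPM stood below naive cells at 35.1 ± 7.74 CPM (SD, n = 3), with a log2 fold change of -0.45 (SE 0.11, edgeR adjusted p = 0.00123). H3C6 and H4C8 did not pass the test, at 0.10 (SE 0.14) and -0.24 (SE 0.19) on the log2 scale. H2BC5 was higher than in naive cells, at 22.4 ± 1.61 CPM against 9.60 ± 3.13 CPM, with a log2 fold change of 1.22 (SE 0.15, edgeR adjusted p = 1.42e-07). The same held for H2BC4 and H1-2, with log2 fold changes of 1.48 and 0.69 (edgeR adjusted p = 0.000123 and 1.81e-06). H2AC8 had 1.95, 1.87 and 1.49 CPM in treated libraries against 0.624, 0.275 and 0.944 CPM in naive ones, a log2 fold change of 1.49 (SE 0.35, edgeR adjusted p = 0.000686).

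H3C10 was called higher at a log2 fold change of 0.64 (edgeR adjusted p = 0.0414), yet its groups overlapped and the call was lost without naive library 1 (log2 fold change 0.69, adjusted p = 0.0658), naive library 3 (log2 fold change 0.36, adjusted p = 0.247), treated library 1 (log2 fold change 0.58, adjusted p = 0.116) or treated library 2 (log2 fold change 0.58, adjusted p = 0.107). H2BC12 was called at a log2 fold change of 0.58 (edgeR adjusted p = 0.0073) and lost the call without treated library 1 (log2 fold change 0.45, adjusted p = 0.0568). In H3C10 the second naive library, and in H2BC12 no naive library, reached into the range of the treated ones.

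Variant genes lower in treated than in naive cells included MACROH2A2, with a log2 fold change of -0.92 (SE 0.10, edgeR adjusted p = 1.15e-08), and H1-10, with a log2 fold change of -0.76 (SE 0.09, edgeR adjusted p = 1.03e-07). MACROH2A1, at 274 ± 1.88 CPM in treated cells against 379.5 ± 34.3 CPM in naive cells (SD, n = 3), had a log2 fold change of -0.47 (SE 0.08, edgeR adjusted p = 1.18e-05), and H2AZ2 one of -0.39 (SE 0.08, edgeR adjusted p = 0.000108). H2AX, at 97.8 ± 2.52 CPM in treated cells against 111 ± 0.420 CPM in naive cells, was called at a log2 fold change of -0.19 (SE 0.07, edgeR adjusted p = 0.0265) and lost the call without naive library 3 (log2 fold change -0.19, adjusted p = 0.0545), treated library 1 (log2 fold change -0.17, adjusted p = 0.089) or treated library 3 (log2 fold change -0.19, adjusted p = 0.0519). H2AJ and H2AZ1 were higher, with log2 fold changes of 0.69 (SE 0.09, edgeR adjusted p = 4.76e-07) and 0.41 (SE 0.12, edgeR adjusted p = 0.0035).

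**Figure D5:**
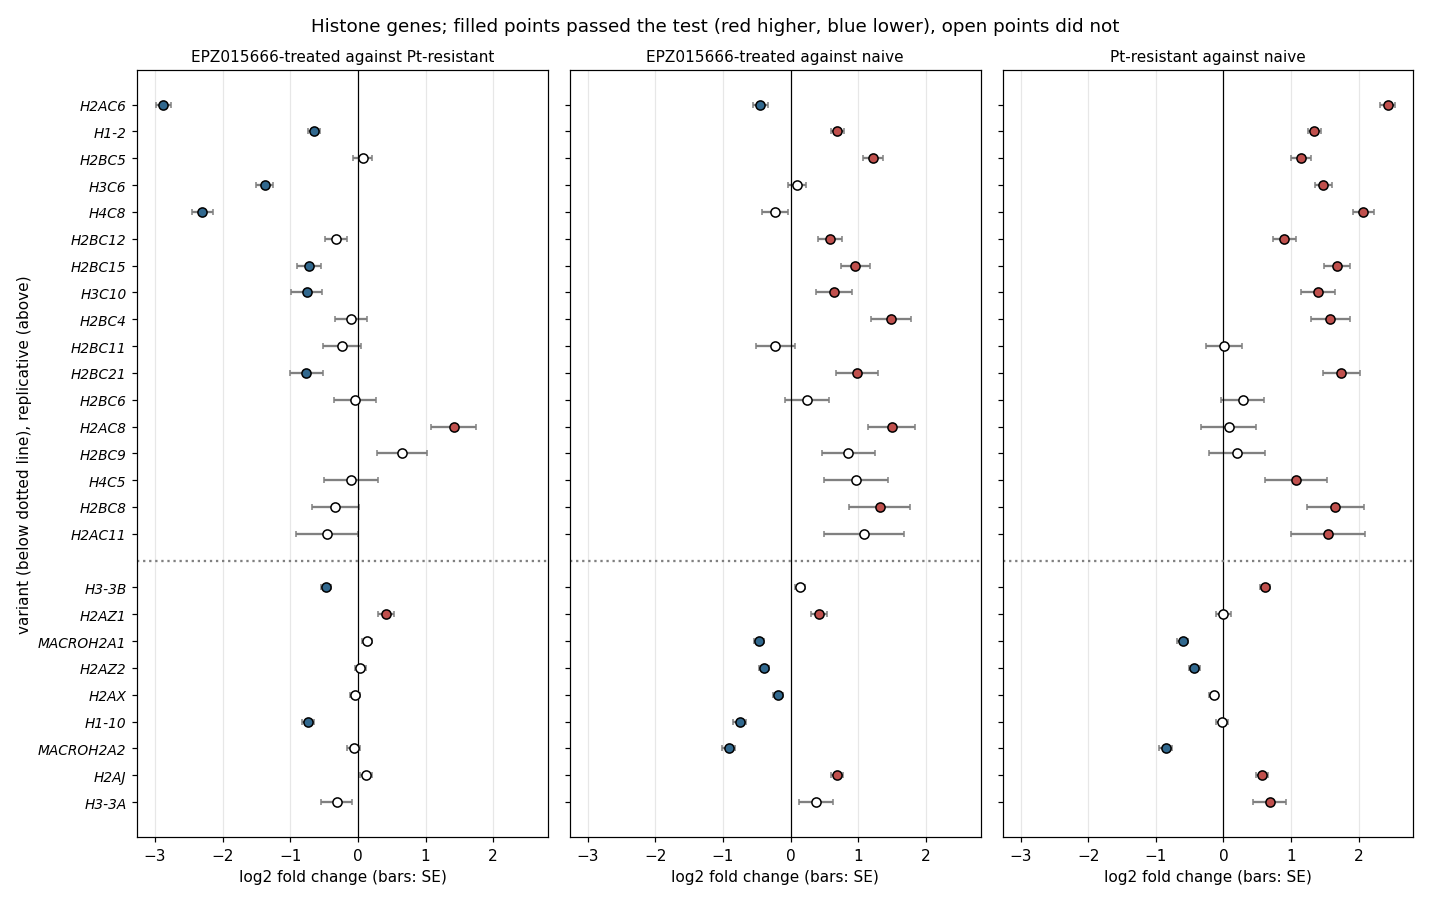
Log2 fold change (points) with its SE (bars) of 26 histone genes in the fit, replicative above the dotted line and variant below, ordered by mean CPM, for 3 comparisons. Filled points passed the edgeR test (red higher, blue lower). H2AC6 lies right of 0 in the panel of Pt-resistant against naive cells and left of 0 in both panels of treated cells.

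Levels were also divided by kilobases of exon, over the union of exons of all annotated GENCODE 29 transcripts of a gene (group means). That union was 6134 bases for H3-3B, which has a coding transcript of 2705, and 2163 for H4C8, which has a coding transcript of 397. The levels and their order between genes therefore depend on the annotation. H2AZ1 stood at 176 CPM per kb in treated, 132 in Pt-resistant and 132 in naive cells, and H3-3B at 58.4 CPM per kb in treated, 81.2 in Pt-resistant and 53.2 in naive cells. H2AC6 stood at 15.3 CPM per kb in treated, 113 in Pt-resistant and 21.03 in naive cells, and H1-2 at 42.6 CPM per kb in treated, 67.03 in Pt-resistant and 26.4 in naive cells. H1-10 was at 34.7 CPM per kb in treated, 58.1 in Pt-resistant and 58.7 in naive cells, so that H2AC6 lay above it in Pt-resistant cells and below it in the other groups. H3C6 and H4C8 were lower, H3C6 at 3.72 CPM per kb in treated, 9.66 in Pt-resistant and 3.48 in naive cells, and H4C8 at 1.26 CPM per kb in treated, 6.27 in Pt-resistant and 1.49 in naive cells. Several replicative models, such as those of H1-2 and H2BC12, hold no bases past the stop codon. How this changes such a level was not tested, and the annotation behind the counts is not given.

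Genes that work with histones were read as lists, whose counts stand against the shares of all tested genes given above, about 30% in each direction in each comparison. Of 32 S phase and replication genes, 29 rose and none fell in EPZ015666-treated against Pt-resistant cells (median log2 fold change 0.81), 20 rose and 6 fell in treated against naive cells (0.40), and 2 rose and 26 fell in Pt-resistant against naive cells (-0.56), where 29.8% of all genes rose and 29.4% fell. Summed, they reached 3448, 3372 and 3434 CPM in treated libraries, 2005, 1944 and 1957 CPM in Pt-resistant libraries and 2829, 2757 and 2742 CPM in naive libraries. The replicative histone sum and this list therefore stood in different orders across the groups: histone mRNA was highest, and the S phase list lowest, in Pt-resistant cells. Whether the share of cells in S phase differed was not tested in these libraries. By flow cytometry, the study reports a slight S phase accumulation of PRMT5-inhibited cells, at other doses and a shorter time than here. PCNA, the replication clamp, had 271, 232 and 294 CPM in EPZ015666-treated cells, 123, 138 and 135 CPM in Pt-resistant cells and 187, 163 and 199.8 CPM in naive cells. CCNE2, a cyclin of S phase entry, had 40.7, 37.8 and 40.6 CPM in EPZ015666-treated cells, 12.7, 14.9 and 15.04 CPM in Pt-resistant cells and 17.02, 23.8 and 23.8 CPM in naive cells.

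In the list for histone pre-mRNA processing and transcription, 13 genes were in the fit, of which 3 rose and 3 fell in treated against Pt-resistant cells, 2 rose in treated against naive cells, and 6 rose and 1 fell in Pt-resistant against naive cells (median log2 fold changes -0.11, 0.18 and 0.28). Against the 31.9% and 30.5% of all genes in treated against Pt-resistant cells, the 3 and 3 of 13 do not set the list apart, and neither count of treated against naive cells exceeds the 32.2% and 31.2% there. SLBP, which binds the stem-loop, had 82.3, 76.8 and 86.9 CPM in EPZ015666-treated cells, 59.2, 67.7 and 58.6 CPM in Pt-resistant cells and 71.8, 61.2 and 70.2 CPM in naive cells, and rose with the inhibitor with a log2 fold change of 0.41 (SE 0.09, edgeR adjusted p = 0.000238). NPAT, the coactivator of replicative histone genes, rose likewise with a log2 fold change of 0.39 (SE 0.11, edgeR adjusted p = 0.00364). LSM11, a subunit of the U7 snRNP, averaged 20.4 ± 3.24 CPM in treated, 11.9 ± 0.352 CPM in Pt-resistant and 18.9 ± 0.167 CPM in naive cells, and was called higher with the inhibitor and lower in Pt-resistant than naive cells. CSTF2T, a paralogue of the cleavage stimulation factor CSTF2, ran the other way, at 17.96 ± 1.98 CPM, 31.03 ± 2.72 CPM and 15.3 ± 1.43 CPM in those groups.

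Of 8 genes of histone mRNA decay, 1 rose and 2 fell in treated against Pt-resistant cells, 3 rose and 3 fell in treated against naive cells, and 3 rose and 2 fell in Pt-resistant against naive cells (medians 0.08, 0.10 and 0.11). With 8 genes and about 30% of all genes called in each direction, these counts say nothing particular about the list. ERI1, the exonuclease that trims the stem-loop, had 15.3, 12.7 and 15.5 CPM in EPZ015666-treated cells, 9.49, 9.25 and 7.68 CPM in Pt-resistant cells and 7.21, 9.27 and 8.62 CPM in naive cells, with a log2 fold change of 0.73 (SE 0.13, edgeR adjusted p = 3.53e-05) for the inhibitor. It was not called between Pt-resistant and naive cells (0.08, SE 0.14).

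Of 23 histone chaperone and exchange genes in the fit, 14 rose and 3 fell in treated against Pt-resistant cells, 6 rose and 8 fell in treated against naive cells, and 2 rose and 14 fell in Pt-resistant against naive cells (medians 0.36, -0.16 and -0.35). The list also holds CENPA, itself a histone, counted among the 14 that rose with the inhibitor and the 14 that fell in Pt-resistant cells. The shares of all tested genes were 31.9% higher and 30.5% lower in treated against Pt-resistant cells, 32.2% and 31.2% in treated against naive cells, and 29.8% and 29.4% in Pt-resistant against naive cells, and the counts of treated against naive cells lie near them. CHAF1B, a subunit of the replication-coupled chaperone CAF-1, had 32.8, 31.2 and 33.8 CPM in EPZ015666-treated cells, 18.9, 14.4 and 14.9 CPM in Pt-resistant cells and 31.3, 30.4 and 28.00 CPM in naive cells. ASF1A, which hands H3-H4 to both deposition pathways, ran the other way, with 39.9, 38.3 and 36.6 CPM in EPZ015666-treated cells, 85.4, 76.9 and 78.3 CPM in Pt-resistant cells and 37.7, 47.4 and 43.7 CPM in naive cells, a log2 fold change of 0.90 (SE 0.09, edgeR adjusted p = 5.75e-09) for Pt-resistant against naive cells and of -1.07 (SE 0.09, edgeR adjusted p = 3.53e-10) for the inhibitor. HIRA, which deposits H3.3, averaged 9.27 ± 0.631 CPM in treated, 7.37 ± 0.582 CPM in Pt-resistant and 11.9 ± 1.03 CPM in naive cells, and was called lower in Pt-resistant than naive cells (-0.70), while H3-3B was higher there. ANP32E, which removes H2A.Z, averaged 292 ± 18.4 CPM in treated, 228 ± 18.01 CPM in Pt-resistant and 283 ± 22.2 CPM in naive cells.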

How the data were processed

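Gene expression was measured by RNA-seq in 9 libraries, 3 each of EPZ015666-treated Pt-resistant, Pt-resistant and naive OVCAR4 cells. According to the study's methods, libraries were made with a directional NEBNext kit and reads were aligned with STAR in its gene counting mode, which drops reads mapping to several places or to overlapping genes. The values the authors deposited are raw counts for each gene, in whole numbers. FastQC, STAR and DESeq2 are named in the submitters' processing notes. Not given in the sources used here are the strand column, genome build and annotation.

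Symbols were matched by stable Ensembl ID for 61369 of 61487 genes, and 105 more were named from GENCODE 29. Another 31 rows with a histone symbol were not protein-coding. GENCODE 29 models were lacking for 4 members, H2AC18, H2AC19, H3C2 and H3C3. Promoters are those of RefSeq (GRCh38.p14).

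Counts were tested with edgeR 4.0.16 in R 4.3.3: filterByExpr (minimum count 10), which left 14630 genes with 99.88% of counts, TMM scaling and a single quasi-likelihood fit over 9 libraries with 3 comparisons, adjusted by Benjamini-Hochberg over all tested genes at 0.05. SE is the log2 fold change divided by the root of F. Alternatives were RLE scaling, library size alone, DESeq2 1.42.0, limma-voom (limma 3.58.1), other filters, only the groups compared, a replicate block and leaving out each library. The fit was tested on simulated data. Named genes were the 8 largest called folds per direction and comparison with at least 5 CPM in the higher group and no overlap, variants in the fit, the 10 replicative genes with the highest CPM per kb, and list members; H2BC21 and others outside the rule were named after their values were seen. Members, lists and rules were chosen with earlier results of these data known. A gene of the variant class and its values are not reported here, although counts and sums over the class include it. Total counts of 14320929 to 19114811 per library set the precision.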

Additional observations from a re-analysis of the deposited data

How the results depend on the processing

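Over 123 gene comparisons (the 27 histone genes in the fit and 14 genes of the lists), no called value changed direction under the alternatives run. Of their 2079 values, 2025 kept their side of the threshold, 37 lost the call and 17 gained it. The call of H3C10 in treated against naive cells was also lost with library size alone (adjusted p = 0.0636), DESeq2 (0.0525) and only those 2 groups (0.0512, edgeR), that of H2AX without a filter (0.0605), and that of H4C5 in Pt-resistant against naive cells with library size alone (0.0504), DESeq2 (0.0803) and only those 2 groups (0.0568, edgeR), while H2AX was called lower in Pt-resistant than naive cells with library size alone (0.0461). Without a filter on low counts, 4 histone genes were higher in EPZ015666-treated than Pt-resistant cells, against 2 with it, since 69 members were then tested. Scaled by library size alone, the log2 ratio of summed variant histone CPM for treated against naive cells was -0.216, against -0.156 with TMM. With the replicate block, 2 histone genes rose and 10 fell in treated against Pt-resistant cells, 12 were higher and 7 lower in treated against naive cells, and 16 were higher and 4 lower in Pt-resistant against naive cells. The replicate numbers do not pair the samples: same-numbered libraries deviated from their group means with correlations of -0.0758 to 0.0995, and the others with -0.112 to 0.0785. The 53 replicative genes outside the fit had too few counts for a test, and why their counts were low was not tested. Reads shared between near-identical copies were not counted.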

Other observations

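Histone H3 of the centromere is encoded by CENPA, which lies outside the families above but was counted in the list of chaperone and exchange genes. CENPA averaged 33.6 ± 2.83 CPM in EPZ015666-treated, 19.5 ± 0.370 CPM in Pt-resistant and 27.2 ± 1.64 CPM in naive cells (SD, n = 3), with a log2 fold change of 0.78 (SE 0.09, edgeR adjusted p = 1.29e-07) for treated against Pt-resistant cells and of -0.48 (SE 0.09, edgeR adjusted p = 0.000123) for Pt-resistant against naive cells. HJURP averaged 79.6 ± 4.74 CPM in EPZ015666-treated, 39.8 ± 3.07 CPM in Pt-resistant and 38.5 ± 2.41 CPM in naive cells (SD, n = 3), and this chaperone of CENP-A was called higher in treated than Pt-resistant cells, with a log2 fold change of 1.00 (SE 0.08, edgeR adjusted p = 5.29e-10). It was not called between Pt-resistant and naive cells (0.05, SE 0.09).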
